A study of Mus musculus with 3 samples.

Results

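The Ms4a genes encode small proteins that cross the plasma membrane several times and sit beside immune receptors. The best known are CD20, the product of Ms4a1 on B cells, and the beta chain of the high-affinity IgE receptor, the product of Ms4a2 on mast cells. Several others are made by monocytes and macrophages, and the human MS4A locus has been linked to the level of soluble TREM2 and to the risk of Alzheimer's disease. Here 9 members expressed by myeloid cells were followed (Ms4a4a, Ms4a4b, Ms4a4c, Ms4a6b, Ms4a6c, Ms4a6d, Ms4a7, Ms4a8a and Ms4a14). They were chosen by name from 21 Ms4a genes, among 22238 genes listed for every library.

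RNA-Seq had been done on 3 pooled libraries of wild-type female C57BL/6J mice aged 10 to 12 weeks. The mice had experimental autoimmune encephalomyelitis (EAE), a model of multiple sclerosis, which was induced by MOG peptide in complete Freund's adjuvant with 250 ng of pertussis toxin at 2 and 24 hours, and cells were sorted at days 14 to 15. Monocytes of the bone marrow (BM monocytes) came from 13 mice in 2 experiments, and those of the spinal cord (SC monocytes) from 18 mice in 3 experiments. Monocyte-derived antigen-presenting cells (APCs) of the spinal cord came from 18 mice in 3 experiments as well. Every gate took CD45+ CD11b+ cells without Ly6G. Monocytes were Ly6Chi and APCs Ly6Clow/-, the spinal cord gates also required CD64, and the bone marrow gate left out CD11c+ cells. By the study's methods, spinal cord cells were freed by enzyme digestion with collagenase D and collected from a Percoll gradient. Bone marrow was flushed out instead, and its monocytes were enriched with a kit before the sort. Between SC and BM monocytes, tissue and preparation thus cannot be told apart. All 3 groups had been immunized, and no library of healthy mice was analysed here. Because each population was 1 library, no difference between populations has a replicate check, and every interval given covers counting error only. The source label of the APC library names the bone marrow, whereas its tissue label and the study's methods name the spinal cord, which was followed here.

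Levels are in TPM, a measure of transcripts corrected for gene length, which was rescaled to the same sum over the 22238 common genes. Step 1 compares SC with BM monocytes and step 2 compares APCs with SC monocytes. Fold changes were taken from whole reads scaled by the median ratio of the 2 libraries compared. A gene with more than 3 TPM in either library compared was termed active. An active gene was called higher or lower if the whole 98% interval of its fold change exceeded 2-fold in that direction. The estimated reads summed to between 27283795 and 33280643 per library. The APC values covered 22242 genes, of which 97.7% were protein-coding, whereas the monocyte values covered 54432 genes (40.1%). The same gene could therefore have another effective length in the APC library, and fold changes of reads over effective length, termed length-corrected, are given beside those of reads. All 7 monocyte markers were above 3 TPM in every library, and their summed level was 37680, 17100 and 5811 TPM in BM monocytes, SC monocytes and APCs, respectively. The highest single marker held 24590, 9189 and 3902 TPM of these sums. In step 1, 5 of the 7 were called lower, whereas Ly6c2 (log2 fold change -0.27) and Plac8 (0.72) were not called. In step 2, 6 were called lower, among them Ly6c2, which encodes Ly6C, by which monocytes and APCs were gated apart. In BM monocytes, SC monocytes and APCs, 7 microglia markers summed to 13, 109.1 and 282.7 TPM and 9 T cell markers to 0.768, 80.4 and 119.6 TPM. The 9 B cell markers summed to 200.6, 25.7 and 44.8 TPM, mostly Ighm, and Pax5 never exceeded 3 reads, the floor for detection. Markers of NK cells (8.16 TPM at most) and of mast cells and basophils (2.94 TPM at most) were low.

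Ms4a transcripts were abundant in BM monocytes and less so in APCs. The 9 members summed to 3868 TPM in BM monocytes, 3049 TPM in SC monocytes and 1551 TPM in APCs. They held 0.25% of the whole reads in the first (95% Wilson interval 0.248 to 0.252), 0.196% in the second and 0.118% in the third. In bulk RNA, fewer cells of a type and less RNA per cell cannot be told apart.

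The make-up of this pool differed between the populations. Ms4a6c had the highest level of the 9 in BM monocytes (38.4% of the pool), Ms4a4c in SC monocytes (32.6%) and Ms4a6d in APCs (27.9%). Within each library, the 95% intervals of no 2 neighbours in the order of levels overlapped. Ms4a6d moved from place 6 in BM monocytes to place 3 in SC monocytes and place 1 in APCs, whereas Ms4a14 was the lowest in each.

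**Figure D1:**
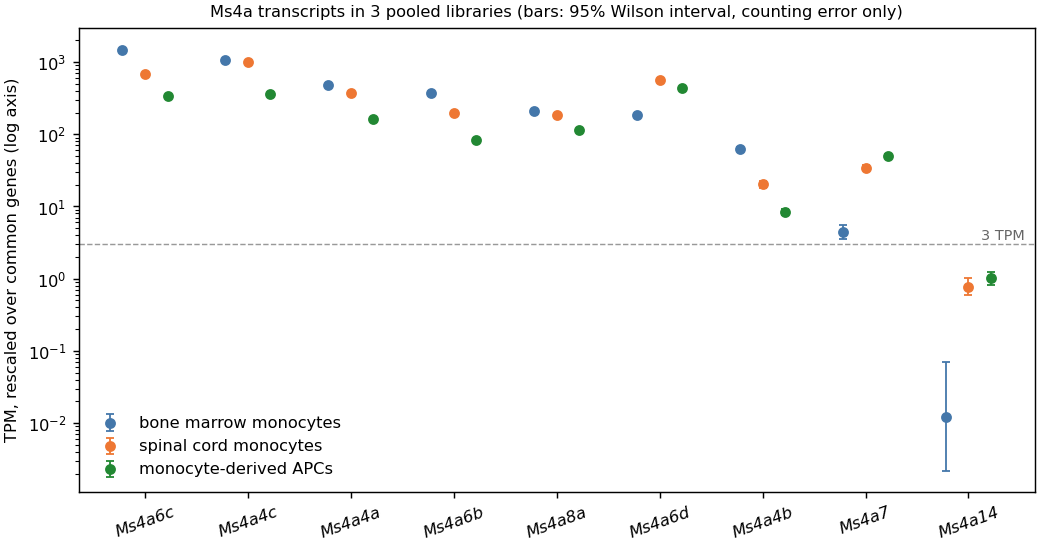
TPM of the 9 Ms4a genes (log axis) in the 3 libraries, with 95% Wilson intervals that cover counting error only. Ms4a6d and Ms4a7 were lowest in BM monocytes, the other genes above the line of 3 TPM were highest there, and Ms4a14 stayed under it.

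**Figure D2:**
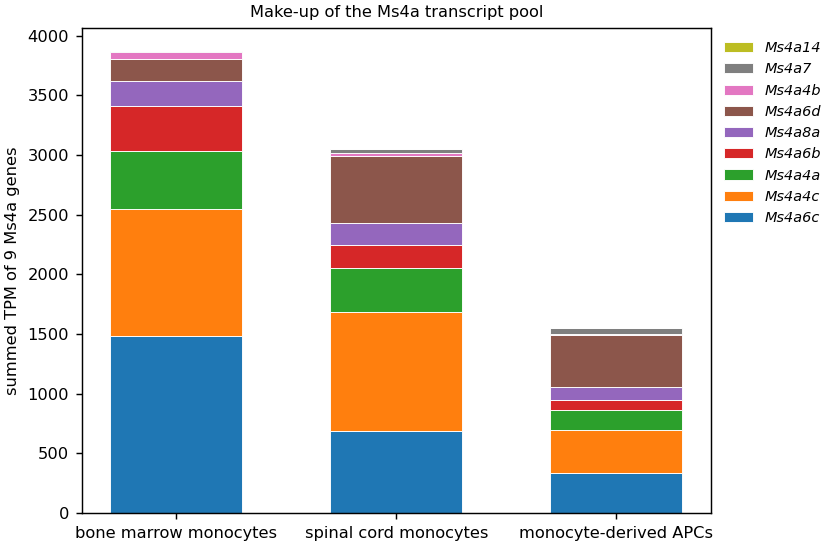
Stacked TPM of the 9 genes in each library, starting at 0. The stack was 3868 TPM in BM monocytes and 1551 TPM in APCs, and the part of Ms4a6d was 4.77% of the first and 27.9% of the second.

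Between BM and SC monocytes, 8 of the 9 members were active. Of these, Ms4a6d and Ms4a7 rose, Ms4a4b fell and 5 were not called. Over all 10072 active genes, 13.6% were called higher and 11.0% lower. The median log2 fold change was -0.01 over the 8 members and -0.17 over all active genes. After length correction the counts were the same, beside 13.8% and 11.5% of all active genes.

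From SC monocytes to APCs, 0 members were called higher, Ms4a4a and Ms4a4c fell, and 6 of 8 active members were not called. Over all 9734 active genes, 1.94% were called higher and 1.66% lower. The median log2 fold change was -0.65 over the 8 members and -0.03 over all active genes. After length correction, Ms4a6b was called lower as well, beside 3.33% lower and 2.38% higher of all active genes, and the median over the members was -1.03. Both comparisons share the library of SC monocytes. With a coefficient of variation of 0.4 assumed between libraries, Ms4a7 in step 1 was the only member called in either step.

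**Figure D3:**
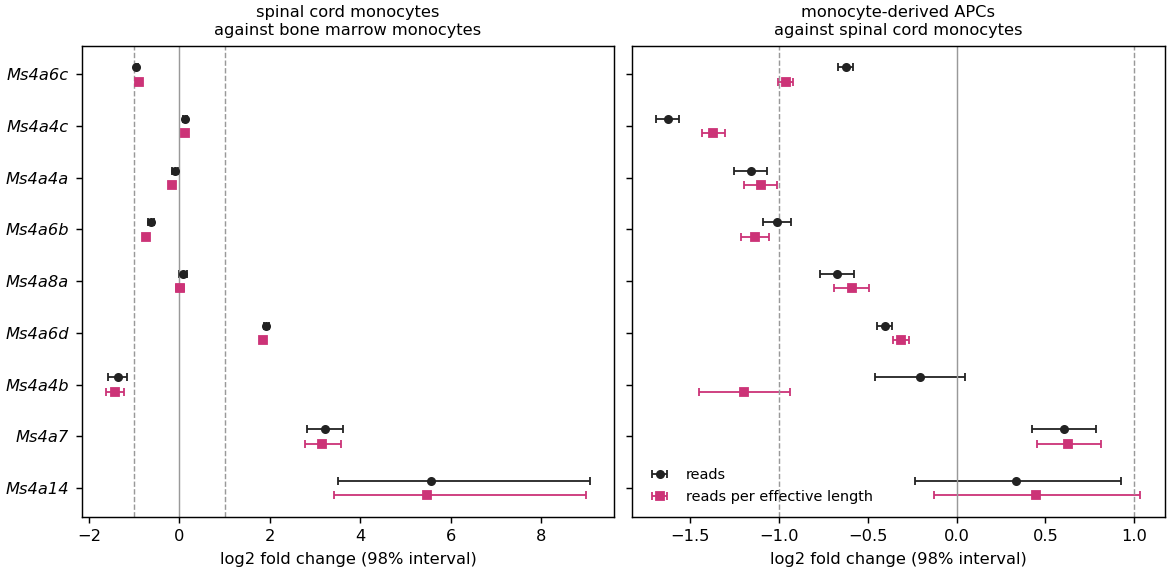
Log2 fold change of the 9 genes in each comparison, from reads (circles) and from length-corrected reads (squares), with 98% intervals that cover counting error only. Dashed lines mark a 2-fold change, and the 2 panels have different axes. Ms4a6d and Ms4a7 lie to the right of the line in the left panel, and in the right panel the square of Ms4a4b lies far from its circle. Ms4a14 was not active, and its position in the left panel rests on 1 read in the bone marrow.

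Ms4a6b, Ms4a6c and Ms4a6d are close copies of each other. Coding bases 91 to 210, counted from the start codon, are shown to let their likeness be seen. Capitals mark positions at which the 3 genes do not all have the same base, which was so at 10 of the 120. The stretches lie in exons 3 to 4 of Ms4a6b (chr19:11520429-11521733 of GRCm38, + strand), exons 2 to 3 of Ms4a6c (chr19:11471195-11472455, + strand) and exons 2 to 3 of Ms4a6d (chr19:11601902-11603202, - strand), spliced as in GENCODE M21.
Ms4a6b: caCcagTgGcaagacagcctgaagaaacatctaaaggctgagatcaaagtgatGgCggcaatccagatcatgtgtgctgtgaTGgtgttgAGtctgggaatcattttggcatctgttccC
Ms4a6c: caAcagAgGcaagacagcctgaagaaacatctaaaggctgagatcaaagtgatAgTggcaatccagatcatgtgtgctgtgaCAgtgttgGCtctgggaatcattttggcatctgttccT
Ms4a6d: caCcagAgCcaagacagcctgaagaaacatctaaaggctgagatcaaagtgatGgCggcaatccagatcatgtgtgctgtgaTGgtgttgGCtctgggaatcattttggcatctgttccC
Over the whole coding sequence, 86.4% of the aligned bases were identical between Ms4a6b and Ms4a6c, 81.8% between Ms4a6b and Ms4a6d and 79.6% between Ms4a6c and Ms4a6d. Of windows of 50 bases, the length of a read, 3.44% of those in Ms4a6b transcripts, 5.85% in Ms4a6c and 2.31% in Ms4a6d were found in another member. With other genes counted as well, these shares were 3.57%, 10.5% and 2.54%, and Ms4a6c shared windows with 10 genes outside the members. A part of the reads could thus be split between the copies or with such genes. The windows were counted over all transcripts, retained introns included. Because the reads came in pairs, the share of reads that fit another gene too was not measured.

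Ms4a6c (ENSMUSG00000079419.4, chr19:11469366-11482192) was the most abundant member in the bone marrow. It had 40955 reads in BM monocytes, 15416 in SC monocytes and 11067 in APCs, or 1485, 687 and 334 TPM. It stood at rank 112 of the 22238 genes in BM monocytes and at rank 428 in APCs, and its level was lower in each population than in the one before it. Between BM and SC monocytes the log2 fold change was -0.95 (98% interval -0.98 to -0.92), which stayed within a 2-fold change. With total reads as the scaling it was -1.11 and called. From SC monocytes to APCs it was -0.63 on reads (98% interval -0.67 to -0.58) and -0.96 after length correction, and neither was called. The effective length of Ms4a6c was 1158 bases in SC monocytes and 1591 in APCs, where its mean transcript length of 1841 bases was that of its only protein-coding transcript.

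Ms4a6d (ENSMUSG00000024679.10, chr19:11586604-11604849), whose product has been found with the complement receptor VSIG4 in macrophages, went the other way. It had 4538 reads in BM monocytes, 12547 in SC monocytes and 10490 in APCs, or 185, 568 and 432 TPM. Both spinal cord populations were thus well above the bone marrow. The log2 fold change between BM and SC monocytes was 1.93 (98% interval 1.87 to 1.98), a 3.80-fold rise. From these to APCs it was -0.41 (98% interval -0.45 to -0.36) and not called. The TPM of Ms4a6c was 8.04 times that of Ms4a6d in BM monocytes, 1.21 times in SC monocytes and 0.772 times in APCs.

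Ms4a6b (ENSMUSG00000024677.13, chr19:11516512-11531256) had 11080, 5222 and 2872 reads in BM monocytes, SC monocytes and APCs, or 376, 195 and 83.9 TPM. Like Ms4a6c, its copy, it was highest in the bone marrow and lowest in APCs. In step 1 the log2 fold change of -0.63 (98% interval -0.68 to -0.57) was not called. In step 2 it was -1.01 on reads (98% interval -1.09 to -0.93), not called, and -1.13 after length correction (98% interval -1.21 to -1.06), called lower. Together, Ms4a6b, Ms4a6c and Ms4a6d made up 52.9%, 47.5% and 54.8% of the pool in the 3 populations. The leading gene of the group was Ms4a6c in both monocyte populations and Ms4a6d in APCs.

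Ms4a4b and Ms4a4c are a second pair of close copies. Coding bases 301 to 460 are shown, with the 6 of 160 positions that differ between the pair in capitals. They lie in exons 4 to 6 of Ms4a4b (chr19:11457841-11461278 of GRCm38, + strand) and of Ms4a4c (chr19:11417688-11421279, + strand).
Ms4a4b: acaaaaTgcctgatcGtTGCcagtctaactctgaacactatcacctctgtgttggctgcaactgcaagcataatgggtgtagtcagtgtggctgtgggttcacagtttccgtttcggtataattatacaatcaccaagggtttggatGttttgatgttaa
Ms4a4c: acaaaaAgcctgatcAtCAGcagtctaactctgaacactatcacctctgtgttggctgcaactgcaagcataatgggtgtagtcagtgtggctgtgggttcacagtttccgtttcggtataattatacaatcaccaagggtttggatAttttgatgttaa
Their coding sequences were identical at 91.7% of bases, with a shared run of 127 bases, and 7.73% of the 50-base windows of Ms4a4c and 1.53% of those of Ms4a4b were found in the other. Ms4a4a had 0 such windows in common with any gene, and its coding sequence matched that of Ms4a4b at 69.9% of aligned bases.

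The likeness of Ms4a4b and Ms4a4c extended upstream. The 250 bases before the RefSeq start of Ms4a4c (chr19:11407411-11407660 of GRCm38.p6, + strand, within an intron of a longer GENCODE transcript) and of Ms4a4b (chr19:11443308-11443557, + strand, of which the last 5 bases lie in an exon of GENCODE) are shown because Ms4a4b was called lower in step 1 and Ms4a4c in step 2. On reads, the step 2 log2 fold changes of the pair were apart, at -0.21 for Ms4a4b (not called) and -1.63 for Ms4a4c. After length correction they were -1.20 (not called) and -1.37, with effective length ratios of 2.16 for Ms4a4b and 0.91 for Ms4a4c. The length-corrected values of step 1 were -1.42 for Ms4a4b and 0.12 for Ms4a4c. Capitals mark the longest run shared by the 2 windows, of 20 bases.
Ms4a4c: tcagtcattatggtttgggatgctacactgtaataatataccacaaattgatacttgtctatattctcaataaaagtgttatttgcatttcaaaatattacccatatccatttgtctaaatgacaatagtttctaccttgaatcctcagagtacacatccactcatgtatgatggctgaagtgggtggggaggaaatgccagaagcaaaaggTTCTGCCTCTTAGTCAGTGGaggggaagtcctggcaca
Ms4a4b: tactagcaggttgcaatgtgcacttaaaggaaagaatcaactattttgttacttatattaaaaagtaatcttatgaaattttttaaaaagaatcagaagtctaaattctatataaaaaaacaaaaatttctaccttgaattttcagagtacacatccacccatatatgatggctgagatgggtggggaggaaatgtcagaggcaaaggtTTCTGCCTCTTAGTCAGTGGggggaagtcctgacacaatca
A local alignment covered 132 bases with 88.6% identity. For Ms4a6c and Ms4a6b the longest shared run was 48 bases and the identity 86.0% over 172 bases. Of the Ms4a6b window, 106 of the 250 bases lie in an exon of another Ms4a6b transcript, its UTR included. That run of 48 bases ended 1 base before the start of Ms4a6c and 70 bases before that of Ms4a6b. In the other 33 of 35 pairs of starts the longest shared run was at most 9 bases.

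Ms4a4c (ENSMUSG00000024675.19, chr19:11404770-11427246), an interferon-inducible gene of mouse macrophages, had 12697 reads in BM monocytes, 10099 in SC monocytes and 3624 in APCs, or 1065.5, 993 and 364 TPM. The 2 monocyte populations were near each other, and APCs stood well below both. In step 1 its log2 fold change was 0.13 (98% interval 0.08 to 0.17), and the sign turned with total reads as the scaling (-0.03). In step 2 it fell by 1.63 on the log2 scale (98% interval -1.69 to -1.56), and after length correction the log2 fold change was -1.37. On reads, 0.822% of all active genes had a lower log2 fold change in this step.

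Ms4a4b (ENSMUSG00000056290.16, chr19:11443553-11467055), known as a gene of T cells, was far less abundant than its copy. It had 1247 reads in BM monocytes (63.3 TPM, 95% interval 59.8 to 66.9), 351 in SC monocytes (20.2 TPM, 18.3 to 22.5) and 337 in APCs (8.38 TPM, 7.53 to 9.33). The bone marrow level was the highest. Between BM and SC monocytes it fell by 1.37 on the log2 scale (98% interval -1.57 to -1.17), and with size factors over genes above 3 TPM in both libraries the value of -1.20 was not called. The summed T cell markers moved the opposite way, from 0.768 to 80.4 TPM, with 8 of 8 active markers called higher and 6 of 9 at or under the floor in the bone marrow. The part of T cells in the level of Ms4a4b was not tested. From SC monocytes to APCs, the log2 fold change of Ms4a4b was -0.21 on reads (98% interval -0.46 to 0.05) and -1.20 after length correction (98% interval -1.45 to -0.94), and neither was called. Its effective length was 894 bases in SC monocytes and 1929 in APCs. GENCODE M21 gives it 7 transcripts, of which 1 is protein-coding and 4750 bases long. The ratio of these effective lengths, 2.16, was the highest of the 9 members, and how much the other transcript set moved the level in APCs was not tested.

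Ms4a4a (ENSMUSG00000101389.1, chr19:11375523-11392790), whose human counterpart is a macrophage protein that associates with Dectin-1, had 5937, 4021 and 1992 reads in BM monocytes, SC monocytes and APCs. These were 480.1 TPM (95% interval 468 to 492), 369 TPM and 163 TPM. As for Ms4a4c, the drop was between SC monocytes and APCs. In step 1 the log2 fold change was -0.10 (98% interval -0.17 to -0.03), with 0.07 under size factors over genes above 3 TPM in both libraries. In step 2 it fell by 1.16 on the log2 scale (98% interval -1.25 to -1.07), a 2.24-fold drop, and after length correction the value was -1.10. The effective length of Ms4a4a differed by a ratio of 1.04 between these libraries.

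Ms4a7 (ENSMUSG00000024672.11, chr19:11321039-11336146), a gene of tissue macrophages that serves to tell non-microglial macrophages of the brain from microglia, had the largest rise of the active members. It had 81 reads in BM monocytes (4.45 TPM, 95% interval 3.58 to 5.54), 551 in SC monocytes (34.4 TPM, 31.7 to 37.4) and 929 in APCs (50.4 TPM, 47.3 to 53.8). It was near the threshold of an active gene in the bone marrow and above it in both spinal cord populations, and it was the only active member whose level was highest in APCs. Between BM and SC monocytes its log2 fold change was 3.22 (98% interval 2.83 to 3.63), a 9.29-fold rise. From these to APCs it was 0.61 (98% interval 0.43 to 0.79) on reads and 0.63 after length correction, and not called. The 7 microglia markers moved in the same direction, with 7 called higher in step 1 and 6 in step 2. Of 8 macrophage markers, 6 were called higher in step 1 and 2 (C1qa and C1qc) in step 2, and 0 lower in either. Over all active genes, 13.6% were called higher in step 1 and 1.94% in step 2. Of the microglia markers, Sall1 had no more than 3 reads in the bone marrow. Markers of CNS-associated macrophages summed to 13.3, 15.1 and 33.0 TPM, with Lyve1 and Folr2 at or under the floor in every library. Of these markers, Mrc1 was called higher in both steps (log2 fold change 2.48 and 1.41), alone among 3 active markers in step 1 and 2 in step 2. By the study's methods, the sort took cells with high CD45 to leave out microglia, and the spinal cord was ejected from the spine, which removes the leptomeninges. The study also stated that its APCs may still hold a small number of microglia, because Tmem119 and P2ry12 were slightly higher there. The part of these cell types in the level of Ms4a7 was not tested. Of the 50-base windows of Ms4a7, 0.306% were found in another gene and 0 in another member.

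RefSeq gives Ms4a7 2 starts. The 250 bases before the outer start (chr19:11336147-11336396 of GRCm38.p6, - strand) hold 0 matches to the motifs named in this paragraph. The 250 bases before the inner one (chr19:11334696-11334945 of GRCm38.p6, - strand, within an intron of the longer transcript) hold a match to the AP-1 motif TGANTCA, in capitals, 74 bases before the start.
Ms4a7: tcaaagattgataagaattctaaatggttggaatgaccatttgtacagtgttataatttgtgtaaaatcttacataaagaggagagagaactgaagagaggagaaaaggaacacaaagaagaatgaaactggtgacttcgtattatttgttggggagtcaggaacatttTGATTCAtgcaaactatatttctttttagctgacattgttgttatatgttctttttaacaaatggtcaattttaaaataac
Such a match was found in 4 of 9 starts of the 8 members in the RefSeq table (Ms4a4b, Ms4a7, Ms4a8a and Ms4a14), in windows from 250 bases before to 50 after the start, and in 7.81% of all 32851 windows of that length. Both strands were searched. The MAF site TGCTGAC, which can share letters with TGANTCA, was in Ms4a8a alone, apart from its AP-1 match (4.67% of all windows). The PU.1 site GAGGAAG, the ISRE (interferon-stimulated response element) and the C/EBP site TTGCNNAA were in 0 of 9, against 13.6%, 3.44% and 10.8% of all windows. A match describes letters in this window and not binding. Ms4a6d has no entry in the table.

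Ms4a8a (ENSMUSG00000024730.7, chr19:11067471-11081102), a gene of alternatively activated macrophages, had near levels in the monocyte populations. It had 3714 reads in BM monocytes, 2856 in SC monocytes and 1983 in APCs, or 209.9, 182 and 114 TPM. The log2 fold change was 0.08 (98% interval -0.00 to 0.16) in step 1, with -0.08 under total reads, and -0.67 (98% interval -0.77 to -0.58) in step 2. It was called in neither.

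Ms4a14 (ENSMUSG00000099398.1, chr19:11301249-11314454) was under 3 TPM in each library and so not active. It had 1 read in BM monocytes, 57 in SC monocytes (0.776 TPM) and 80 in APCs (1.01 TPM). The bone marrow value was under the floor of 3 reads, or 0.0369 TPM. The scaled ratio of spinal cord to bone marrow reads was 78.4 (95% exact interval 13.5 to 3150), and that of APCs to SC monocytes 1.27 (0.891 to 1.81).

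The members lie on chromosome 19 in a cluster of 679 kb (chr19:10962293-11640851 of GRCm38) that holds all 21 Ms4a genes. The 5 members on the + strand, Ms4a4a, Ms4a4c, Ms4a4b, Ms4a6c and Ms4a6b, follow each other within 156 kb with no other Ms4a gene between them. After length correction, the log2 fold changes of these 5 from SC monocytes to APCs lay between -1.37 and -0.96. Those of the 3 active members on the - strand, which flank them, lay between -0.59 and 0.63. On reads the ranges overlapped, with -1.63 to -0.21 on the + strand and -0.67 to 0.61 on the - strand. In step 1, after length correction, the + strand members ranged from -1.42 to 0.12 and the - strand members from 0.02 to 3.16. On reads these ranges were -1.37 to 0.13 and 0.08 to 3.22. Ms4a3, which is also on the - strand of the cluster but not a member, was below all of these in that step. Its value was -2.86 after length correction and -2.55 on reads. Ms4a6d was called higher in step 1, whereas its copies Ms4a6b and Ms4a6c, which are on the other strand, were not called. With 5 and 3 genes these ranges are a description, and no test was made.

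**Figure D4:**
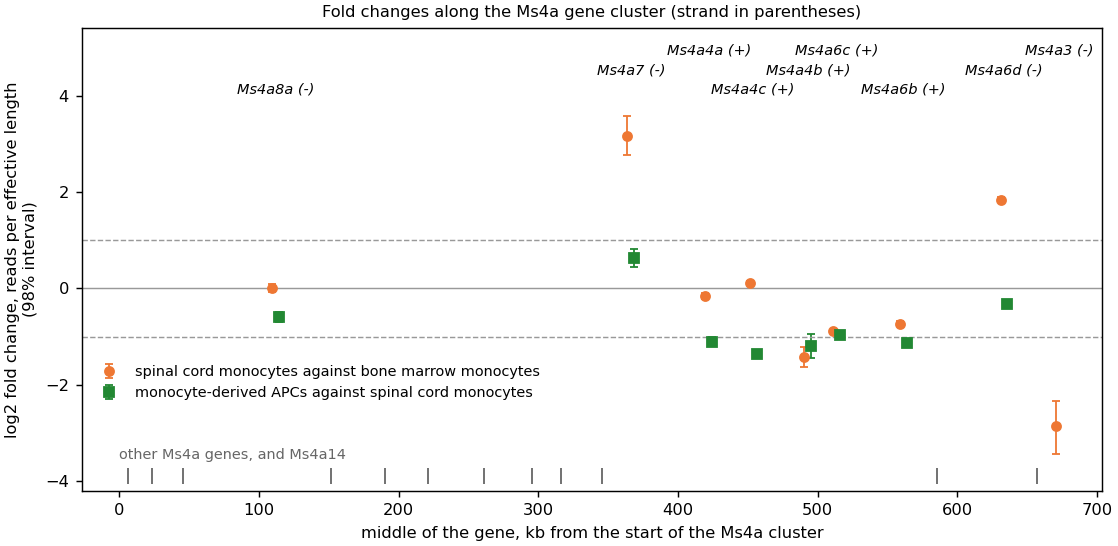
Log2 fold change of length-corrected reads, with 98% intervals, against the position of each active gene, Ms4a3 included for step 1, in kb from the start of the Ms4a cluster. Circles compare SC with BM monocytes and squares APCs with SC monocytes, ticks mark the inactive Ms4a genes, and dashed lines mark a 2-fold change. The squares of the + strand genes lie between -1.37 and -0.96, whereas on reads, which are not plotted, these genes ranged from -1.63 to -0.21 and overlapped the - strand genes (-0.67 to 0.61).

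The other 12 Ms4a genes were low. Ms4a3, a gene of granulocyte-monocyte precursors, had 336 reads in BM monocytes (21.2 TPM), 41 in SC monocytes (2.46 TPM) and 5 in APCs. It fell by 2.55 on the log2 scale between BM and SC monocytes (98% interval -3.14 to -2.03). It is 1 of 6 markers of these precursors, which were all called lower in that step and summed to 665.9, 68.9 and 24.7 TPM in the 3 populations. Ms4a1 (CD20) had 6, 29 and 5 reads, and Ms4a2 had 3, 1 and 2, so Ms4a2 never exceeded the floor and Ms4a1 was above it in each population. Ms4a12 reached 18 reads and Ms4a4d 5 reads in APCs, and Ms4a5, Ms4a10, Ms4a13 and Ms4a18 had 0 reads in every library. Tmem176a and Tmem176b, related genes outside the cluster, were called in neither step and had 45.4 and 56.2 TPM in APCs.

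A list of 12 genes held receptors, adaptors and other proteins with which MS4A proteins have been associated. It was chosen with earlier results of these data known, so its counts are a description. Of the 12, 6 were called higher between BM and SC monocytes and 0 lower, with a median log2 fold change of 1.14. Over all active genes, 13.6% were called higher and 11.0% lower. Fcer1g, Card9, Adam10 and Adam17, also on the list, were called in neither step. In step 2, Cd63 was called higher and 0 were called lower, beside 1.94% and 1.66% of all active genes, with a median of -0.06. Fcgr1, which encodes CD64, was 1 of the 6 called in step 1 (log2 fold change 1.90), and only the spinal cord gates required CD64. In step 2 the value of Fcgr1 was -0.78 and not called. Clec7a, which encodes Dectin-1, rose by 2.71 on the log2 scale (98% interval 2.68 to 2.74), from 14127 to 67277 reads (496 to 2778 TPM), and had 81879 reads in APCs. Trem2 rose from 54.9 to 159.9 TPM, and its log2 fold change to APCs was 0.38. Fcgr2b, the inhibitory Fc receptor, rose 7.99-fold and Fcgr3 2.94-fold in step 1. Cd63, a tetraspanin of late endosomes, had 5.19, 126 and 275 TPM and was called in both. Ms4a4a, whose human counterpart associates with Dectin-1, had its highest TPM in BM monocytes, where Clec7a was lowest. The step 1 log2 fold change of Ms4a4a, -0.10, was not called, and its sign depended on the scaling. Tyrobp and Syk, also among the 12 genes, had log2 fold changes of 0.02 and 0.09 in step 1 and of -0.59 and -0.05 in step 2. They were called in neither.

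For each active member, the 2 genes outside the family with the nearest levels were found, by Euclidean distance over log2(TPM + 1) in the 3 libraries. With 3 values per gene this is a description. Nearest to Ms4a7 were P2ry13 (distance 0.22), a purinergic receptor gene, with 5.34, 33.8 and 51.3 TPM, and Mid1. Trf, the transferrin gene, was near to Ms4a6d (0.35), with 178, 447 and 419.5 TPM. Samhd1 and Arpc1b were nearest to Ms4a4c, Prelid1 and Srsf3 to Ms4a4a, and Hist1h2bg and Tiam1 to Ms4a4b. Hopx (0.101) and Adgre5 were nearest to Ms4a6b, S100a6 and Msrb1 to Ms4a6c, and Ubl3 and Mfsd1 to Ms4a8a.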

How the data were processed

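RNA-Seq libraries of 3 sorted populations, 1 per population, were analysed. The authors had quantified reads with Salmon 0.14.1 (mm10, GENCODE) and pooled isoforms by gene, and they deposited estimated counts, TPM, which corrects for length and depth, and effective lengths. Estimated counts were rounded to whole reads. TPM was rescaled to an equal sum over the 22238 common genes, which held 84.9%, 85.3% and 100.0% of the deposited TPM in BM monocytes, SC monocytes and APCs. Gene names and coordinates were taken from GENCODE M21 (GRCm38) and upstream sequences from RefSeq (GRCm38.p6).

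The log2 ratio of scaled reads had a gamma posterior with 1 read added, whose median is printed with percentiles 1 and 99 as the interval. Level intervals were 95% Wilson intervals, and PCR copies are not independent molecules. With 1 library per population no p-value was computed. All 9 members were named, with the 2 genes nearest to each active member, except where a gene is not reported here. The members and gene lists were chosen with earlier results of these data known. The procedure was tested on simulated data. Alternatives covered scaling, thresholds, added reads, effective length and TPM ratios. Scripts ran in R 4.3.3 with edgeR 4.0.16 (TMM factors only) and in Python 3.11.15 with scipy 1.17.1, numpy 2.4.6, matplotlib 3.10.9 and pandas 2.3.3.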

Additional observations from a re-analysis of the deposited data

Results flagged for a closer look

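Genes within the Ms4a cluster that were listed for the monocyte libraries only, and so entered no comparison, also had reads above the floor of 3. AW112010 had 1223 reads in BM monocytes and 14957 in SC monocytes. Lower values were found for BE692007 (74 and 33 reads), Gm5511 (35 and 6 reads), Gm6501 (15 and 18 reads), Gm28935 (13 and 6 reads), Gm38275 (12 and 20 reads) and Gm336 (6 and 7 reads), in the same order. Gm28347 had 7 reads in SC monocytes. No value of these genes in APCs was used here.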

How the results depend on the processing

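No paired analysis was possible because each population had 1 library, and for the same reason no library could be left out. Over 11 settings, 198 alternatives of the members' log2 fold changes were computed, of which 85 in the first step (BM to SC monocytes) and 90 in the second (SC monocytes to APCs) kept both sign and call. In the first step 3 lost a call, 4 gained 1 and 7 changed sign. In the second 2 lost a call, 7 gained 1 and 0 changed sign. The signs that changed were those of Ms4a4a (0.070 with size factors over genes above 3 TPM in both libraries, an alternative chosen after seeing the data), Ms4a4c (-0.032 with total reads, -0.10 with TPM ratios at a pseudocount of 1 or 0.1) and Ms4a8a (-0.081 with total reads, -0.20 with either TPM ratio). Total reads moved all log2 fold changes of the first step by -0.16 and the size factors over genes above 3 TPM in both libraries by 0.17.

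With an assumed coefficient of variation of 0.4 between libraries, 1 member (Ms4a7) was called higher and 0 lower in the first step and 0 lower in the second, and the calls over all genes were 627 higher and 228 lower, then 43 higher and 14 lower. In the first step 2 members were called lower with total reads or either TPM ratio, where Ms4a6c was added, and 0 with the size factors over genes above 3 TPM in both libraries. In the second, 5 were called lower with either TPM ratio. Over all genes, 1890 and 2137 were called lower in the first step with TPM ratios at a pseudocount of 1 and 0.1, and 528 and 617 in the second, where 351 were called higher at 0.1. With no threshold on TPM, 2591 were called higher in the first step, and 389 higher and 288 lower in the second. Divided by effective length, 324 were called lower in the second. As deposited, the members summed to 3285.6 TPM in BM monocytes and 2600.7 TPM in SC monocytes. The causes of these shifts were not tested. With 1 library each, depth limits only the counting error.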
